A study of Homo sapiens with 24 samples.

Results

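The genes described here are ISG15 and the enzymes that attach it to or remove it from other proteins (UBE2L6, HERC5, HERC6 and USP18), together with the interferon-induced genes IFI6, IFI27, IFI35, IFI44 and IFI44L. They were chosen by name, and every probe whose single annotated gene symbol was one of these 10 names was taken. This gave 13 probes for 9 genes, out of 48803 probes and 18852 named genes on the array. UBE2L6 had 3 probes, IFI6 and IFI44L had 2 each, and the other members had 1. USP18, the protease that removes ISG15 and also dampens the type I interferon receptor, was not analysed here.

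ISG15 is a small ubiquitin-like protein that is made after interferon binds its receptor. A cascade joins it to target proteins: the activating enzyme UBA7, the conjugating enzyme UBE2L6 and a ligase, which in human cells is mainly HERC5. Interferon acts through JAK kinases on a transcription factor complex that includes IRF9 and binds the interferon-stimulated response element in the promoters of its target genes. Unbound ISG15 also leaves the cell and binds the integrin LFA-1 on lymphocytes.

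RNA from 2 human prostate lines was hybridised to Illumina bead arrays, with 6 biological replicates in each of 4 groups. PNT1a is an immortalised line of normal prostate epithelium, and its cells carried either an empty vector or a HIP1 construct stably and were kept in G418 at 0.8 mg/ml. LNCaP is an androgen-responsive prostate cancer line, and its cells were taken 4 days after transient transfection with empty vector or HIP1. Both lines grew in RPMI with 10% fetal bovine serum, and HIP1 encodes an adaptor protein of clathrin-coated vesicles. The sources used here do not say whether each stable PNT1a line is 1 clone or a pool, or what share of LNCaP cells took up the plasmid.

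Levels are log2 intensities, on which a difference of 1 is a 2-fold change in signal. The background level was 6.97, and each array had 12114 to 12122 probes above it. A probe was tested within a line if it exceeded that level on at least 6 of the line's 12 arrays. The signal of the HIP1 probe itself was 7.69 ± 0.21 with vector and 7.79 ± 0.35 with HIP1 in PNT1a (SD, n = 6 each; exact permutation p = 0.543). In LNCaP it was 7.40 ± 0.16 and 7.29 ± 0.15 (exact permutation p = 0.232). The probe did not separate the groups in either line, and its place relative to the cloned sequence was not given in the sources used here. The groups are therefore called HIP1-labelled and vector arrays. The lines carried their markers: 6 of 6 measured luminal and androgen-regulated genes, such as KLK3 and TMPRSS2, were higher in LNCaP vector arrays, against 39.3% of all probes. All 4 tested basal or mesenchymal genes, such as VIM, were lower there, while the basal keratins KRT5 and KRT14 were below background on every array of both lines. Only 1 of the 6 luminal genes was tested within PNT1a, and only 1 of the 4 basal or mesenchymal genes within LNCaP. The others passed the filter through the line where they are high, so their direction was fixed in advance. Both PNT1a arrays numbered 6 stood apart. Their mean correlations with the rest of their groups were 0.942 (vector) and 0.919 (HIP1-labelled), while no other PNT1a array was under 0.973, and calls that change without them are given both ways.

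The promoters were searched for the core of the interferon-stimulated response element, because that element links these genes to interferon signalling. The letters searched were GAAANNGAAA on either strand, in RefSeq windows from 250 bases before to 50 bases after each annotated start (GRCh38.p14). The motif was present in 6 of the 9 members in the RefSeq table: ISG15, HERC5, IFI6, IFI27, IFI44 and IFI44L. It was present in 24 of 34 other interferon-stimulated genes, in 0 of 7 paralogs of the members, and in 4.38% of all 27305 genes. UBE2L6, HERC6 and IFI35 held no match in their windows. The matches of the members follow, upstream of the start and on the coding strand, with each match and its reverse complement in capitals.
ISG15, chr1:1013374-1013409, plus strand: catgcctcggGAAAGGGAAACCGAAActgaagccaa
HERC5, chr4:88456984-88457064, plus strand: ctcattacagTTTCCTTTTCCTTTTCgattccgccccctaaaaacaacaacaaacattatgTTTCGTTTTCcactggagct
IFI6, chr1:27672266-27672358, minus strand: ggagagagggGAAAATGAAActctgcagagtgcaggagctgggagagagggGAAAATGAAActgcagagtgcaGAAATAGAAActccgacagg
IFI27, chr14:94110618-94110660, plus strand: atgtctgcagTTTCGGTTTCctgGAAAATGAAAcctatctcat
IFI44, chr1:78649761-78649788, plus strand: gcacactgagTTTCAGTTTCctttctct
IFI44L, chr1:78620274-78620394, plus strand: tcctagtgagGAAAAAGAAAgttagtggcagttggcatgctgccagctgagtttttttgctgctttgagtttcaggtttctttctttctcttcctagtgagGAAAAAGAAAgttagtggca
ISG15 held 2 overlapping matches, HERC5 held 3 of which the first 2 overlap, IFI6 held 3, IFI27 and IFI44L held 2 each, and IFI44 held 1. A match in these letters describes the sequence and does not show that a factor was bound in these cells.

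In PNT1a, all 9 measured genes were lower in HIP1-labelled than in vector arrays by at least 1 probe. Of the 12 probes tested, 11 fell and 0 rose at a limma adjusted p below 0.05, against 13.4% of all tested probes called lower and 14.1% called higher. For the same 11 probes all 6 HIP1-labelled arrays lay below all 6 vector arrays, which held for 7.44% of tested probes. The median difference of the 12 probes was -2.23 on the log2 scale, and that of all 12238 tested probes was 0.0017. The exact permutation p of each of the 11 probes was 0.00216, the smallest that the 924 splits of 12 arrays can give. The second probe of IFI44L passed the filter through the vector arrays alone, so it could only differ downward.

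**Figure D1:**
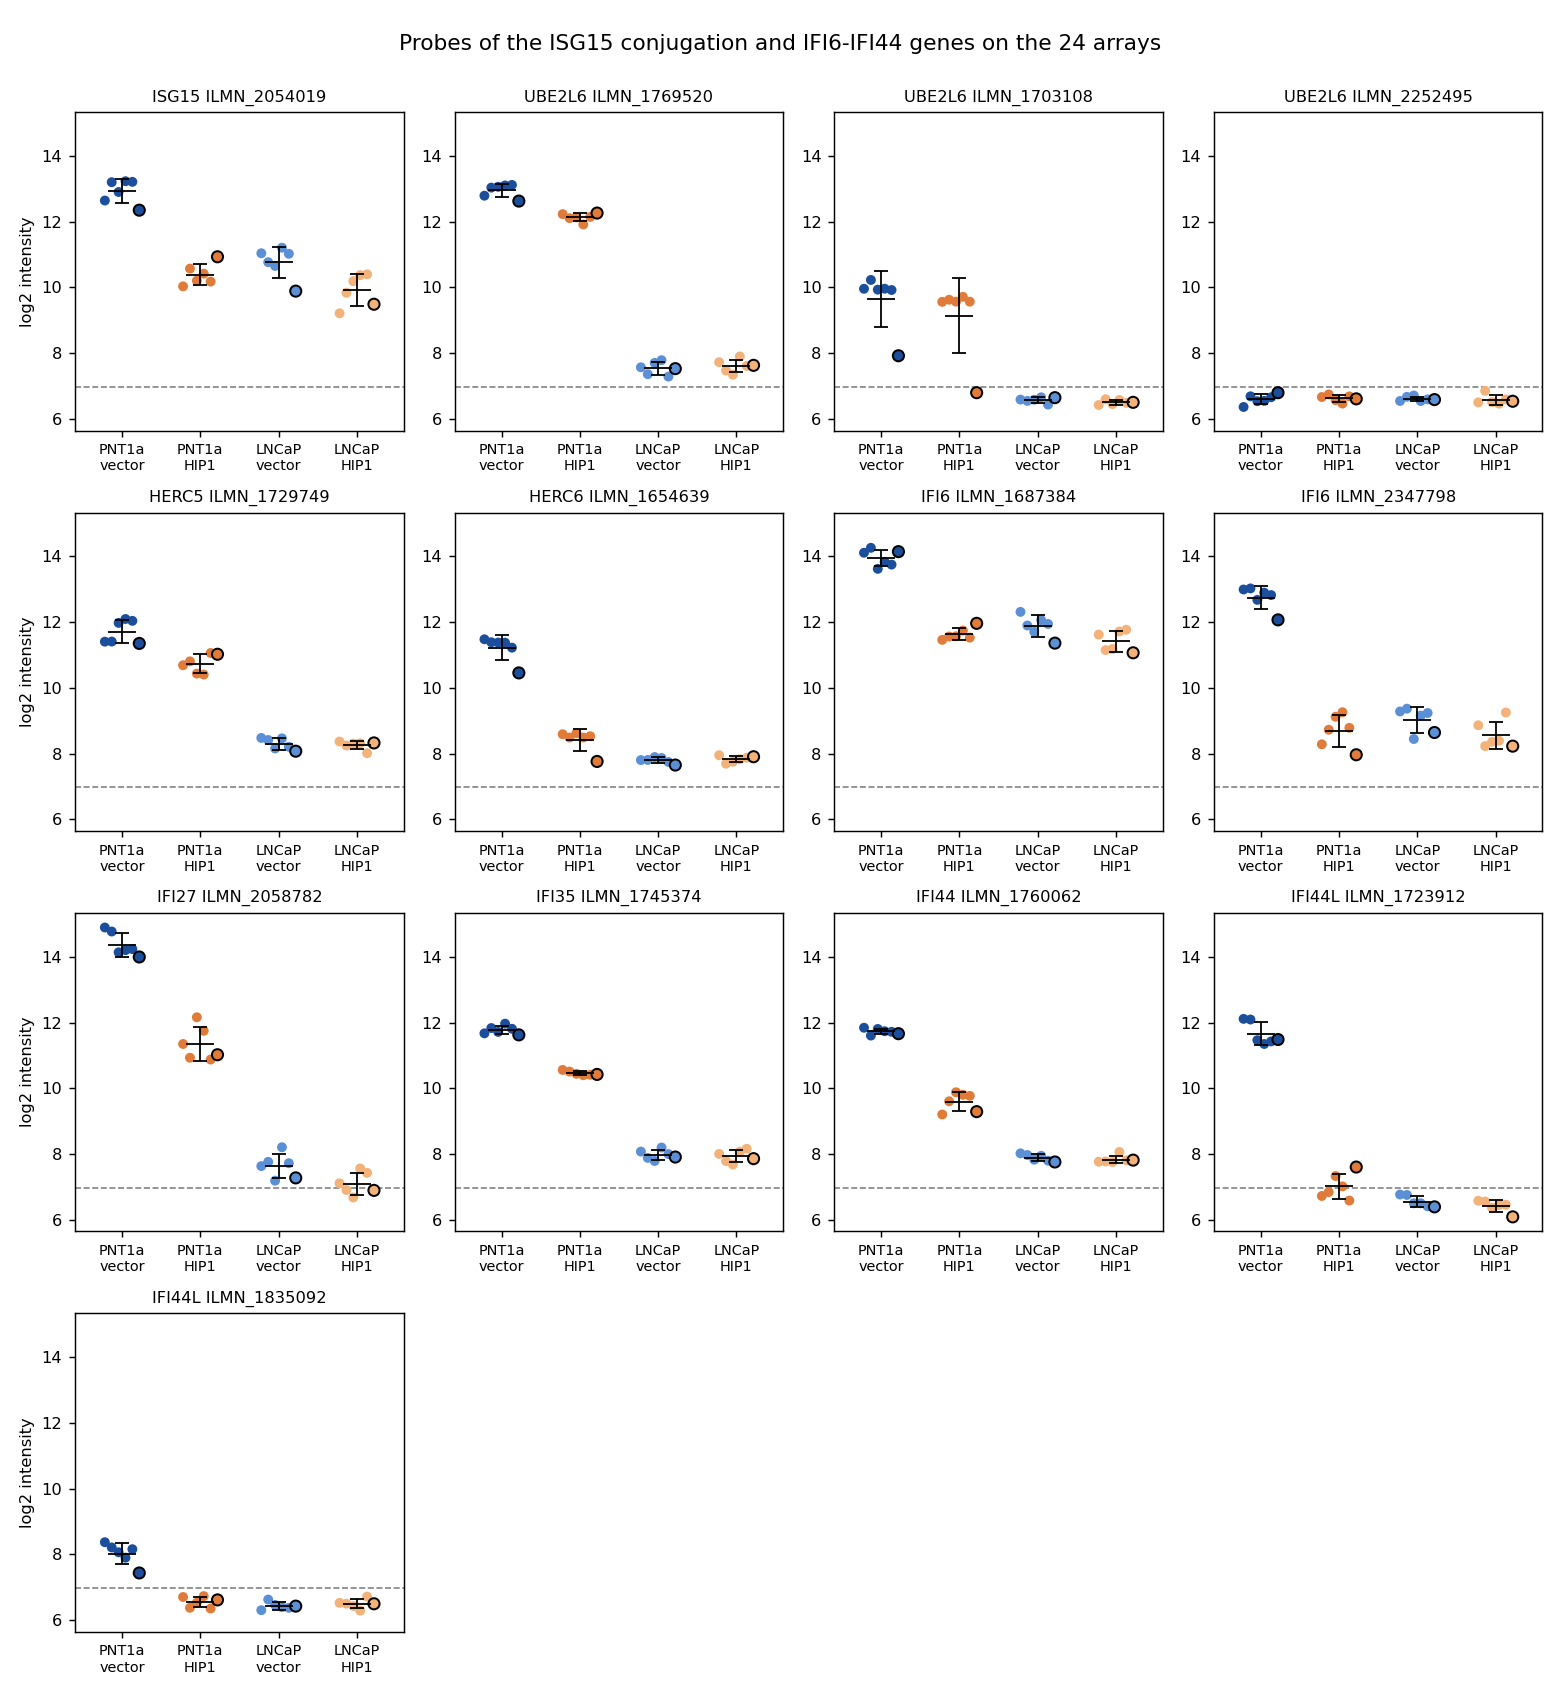
Log2 intensity of the 13 member probes on each of the 24 arrays, by group (x axis). Each point is 1 array, black-rimmed points are the arrays numbered 6, bars are mean and SD of 6 arrays, and the dashed line is the background level of 6.97; PNT1a vector arrays have the highest mean for every probe except the UBE2L6 probe that stays below background throughout.

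ISG15 itself, the modifier, lay between 12.35 and 13.23 in PNT1a vector arrays, with a median of 13.06. With HIP1 it lay between 10.03 and 10.93, with a median of 10.31. The lowest vector array stood well above the highest HIP1-labelled array. The difference was -2.54 ± 0.18 (SE), a 5.80-fold fall (limma adjusted p = 3.56e-07).

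UBE2L6, the conjugating enzyme that carries ISG15 from UBA7 to the ligase, fell less. Its first probe (ILMN_1769520) ran from 12.63 to 13.12 with vector (median 13.05) and from 11.92 to 12.27 with HIP1 (median 12.14). The groups did not overlap, and the difference was -0.82 ± 0.10 (adjusted p = 3.94e-05, limma). A second UBE2L6 probe (ILMN_1703108) ran from 7.92 to 10.23 with vector (median 9.95) and from 6.80 to 9.72 with HIP1 (median 9.57), and its groups overlapped. In each group the lowest value was that of array 6. Over all arrays the second probe differed by -0.52 ± 0.51 and was not called (limma adjusted p = 0.513). Without both arrays numbered 6 it differed by -0.39 and was called (limma adjusted p = 0.000635). The remaining UBE2L6 probe (ILMN_2252495) was below background on all 24 arrays.

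HERC5, the main ISG15 ligase of human cells, ran from 11.35 to 12.10 with vector (median 11.69). With HIP1 it ran from 10.41 to 11.06 (median 10.75), entirely below the vector range. The fall was -0.98 ± 0.17, or 1.97-fold (limma adjusted p = 0.000756). HERC6, the related ligase that serves as the main ISG15 ligase in mouse, ran from 10.46 to 11.48 with vector (median 11.38). Its HIP1-labelled arrays ran from 7.76 to 8.62 (median 8.51), far below the vector arrays, and array 6 was the lowest of each group. The HERC6 fall was -2.80 ± 0.19 (limma adjusted p = 1.98e-07), larger than that of HERC5, its neighbour on chromosome 4.

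IFI6 encodes a small membrane protein that restrains cell death and some viruses. Its first probe (ILMN_1687384) ran from 13.62 to 14.26 with vector (median 13.98) and from 11.46 to 11.97 with HIP1 (median 11.57). Its second probe (ILMN_2347798) ran from 12.07 to 13.03 with vector (median 12.86) and from 7.96 to 9.26 with HIP1 (median 8.76). Neither probe overlapped between the groups, but the sizes disagreed. The first probe gave -2.32 ± 0.12 (limma adjusted p = 2.62e-08) and the second -4.06 ± 0.22 (limma adjusted p = 3.06e-08). The sources used here do not say what each probe detects within IFI6.

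IFI27, a relative of IFI6, ran from 14.00 to 14.89 with vector (median 14.22). With HIP1 it ran from 10.88 to 12.16 (median 11.19). Every HIP1-labelled array lay below every vector array, and the fall was -3.03 ± 0.23, or 8.15-fold (limma adjusted p = 6.01e-07).

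IFI35 encodes a protein that forms a cytoplasmic complex with NMI. It ran from 11.63 to 11.97 with vector (median 11.76) and from 10.40 to 10.56 with HIP1 (median 10.43). The groups lay clear of each other, and IFI35 fell by 1.31 ± 0.08 (SE; limma adjusted p = 4.82e-08).

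IFI44 and IFI44L are neighbouring paralogs on chromosome 1 that are induced by type I interferon. IFI44 ran from 11.60 to 11.84 with vector (median 11.73) and from 9.20 to 9.88 with HIP1 (median 9.69). The arrays of the groups did not meet, and the difference was -2.14 ± 0.12 (limma adjusted p = 3.50e-08). IFI44L by its first probe (ILMN_1723912) ran from 11.35 to 12.11 with vector (median 11.47) and from 6.58 to 7.60 with HIP1 (median 6.93). Only 3 of the 6 HIP1-labelled arrays were above background for that probe. Its difference was -4.64 ± 0.19 (limma adjusted p = 2.12e-09), the largest of the 12 probes. The second IFI44L probe (ILMN_1835092) ran from 7.43 to 8.37 with vector (median 8.11) and was below background on every HIP1-labelled array, at least 2.08-fold lower (limma adjusted p = 4.64e-06).

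**Figure D2:**
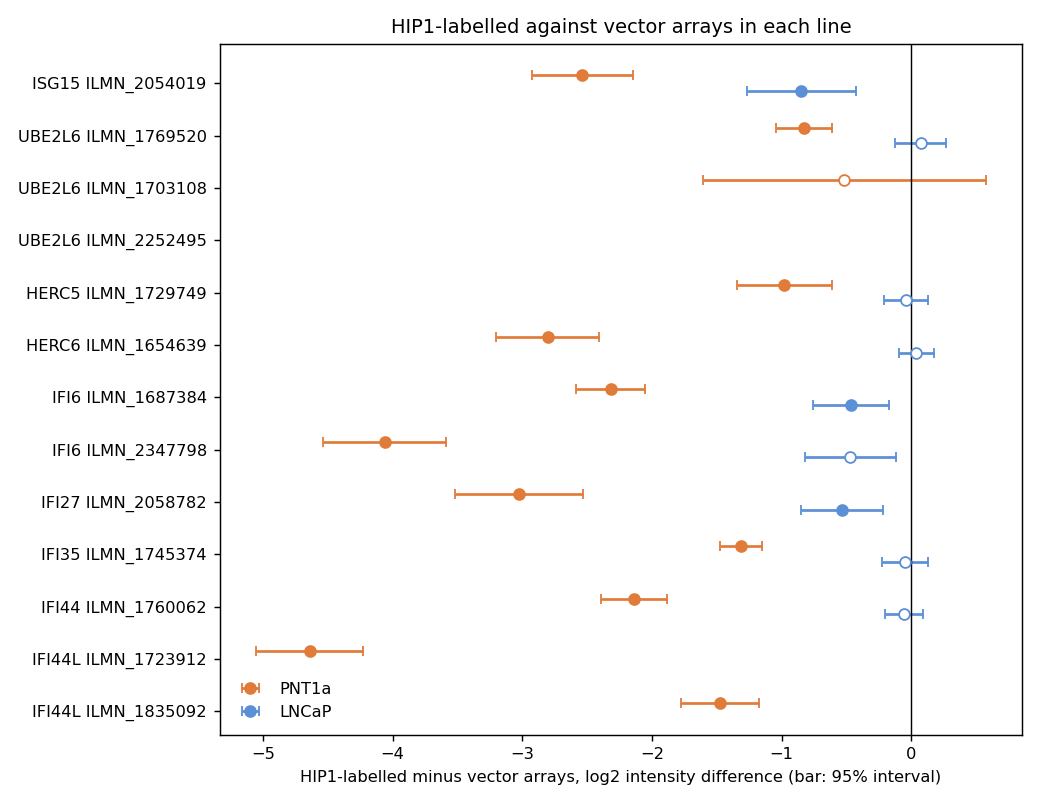
Difference between HIP1-labelled and vector arrays (x axis, log2 intensity) for each member probe (y axis), with its 95% interval, in PNT1a (orange) and LNCaP (blue). Filled points are called at a limma adjusted p below 0.05, open points are not, and probes without a point were not tested in that line; 11 of 12 PNT1a points and 3 of 9 LNCaP points are filled, all to the left of 0.

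The 12 PNT1a arrays fell into 3 clusters by their deviations from the group means, and each cluster held both groups. The clusters were vector 1 and 2 with HIP1-labelled 3 and 4, vector 3 to 5 with HIP1-labelled 1, 2 and 5, and the pair of arrays numbered 6. The 11 called probes were lower in HIP1-labelled arrays within each of the 3 clusters. That direction was fixed in advance, because for these probes every HIP1-labelled array lay below every vector array. Only the sizes within clusters are described here. ISG15 differed by -2.61, -2.86 and -1.42 in that order, and HERC5 by -0.99, -1.19 and -0.33. HERC6 differed by -2.88, -2.79 and -2.70. The pair numbered 6 thus gave a smaller difference than the other clusters for ISG15 and HERC5 and nearly the same one for HERC6. The UBE2L6 probe ILMN_1769520 was also least different in that pair (-0.36, against -0.89 and -0.93), and so was the first IFI44L probe (-3.88, against -4.93 and -4.70). Each cluster has 1 to 3 arrays a group, so these values carry no test.

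**Figure D3:**
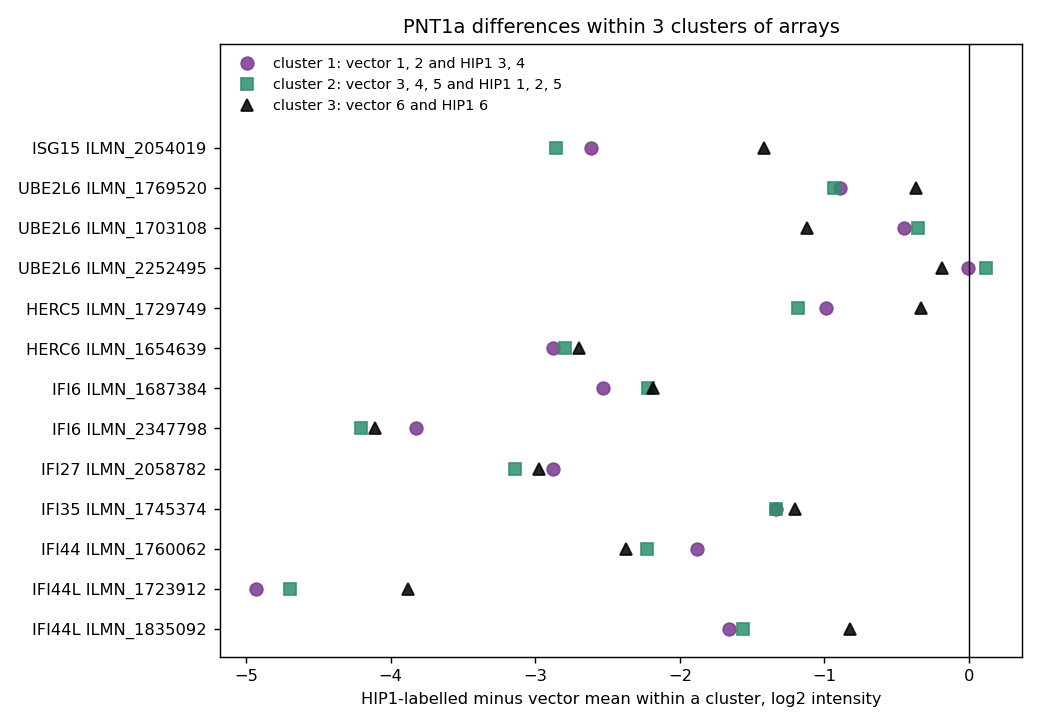
HIP1-labelled minus vector mean (x axis, log2 intensity) within each of 3 clusters of PNT1a arrays, for each member probe (y axis). All 12 tested probes lie to the left of 0 in every cluster, which the lack of overlap between groups fixed in advance for the 11 called ones. The triangles of the arrays numbered 6 lie nearest to 0 for ISG15 (-1.42) and HERC5 (-0.33).

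Some other genes of ISG15 biology also fell in PNT1a. Of 5 listed (the other enzymes and the LFA-1 receptor), 4 were tested, 3 fell and 0 rose, with a median of -0.51. UBA7, the ISG15 activating enzyme, went from 8.68 ± 0.17 to 8.29 ± 0.26 (-0.39 ± 0.12, SE; limma adjusted p = 0.0303). TRIM25, a ligase for both ubiquitin and ISG15, went from 9.38 ± 0.18 to 8.54 ± 0.14 (-0.83; limma adjusted p = 3.19e-05). ITGB2, the beta chain of LFA-1, fell by 0.64 (limma adjusted p = 0.00475), and its partner ITGAL was below background. The ligase ARIH1 differed by -0.05 ± 0.15 and was not called.

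Paralogs of the members, which are not known as interferon-stimulated genes, had 0 falls. Of 8 listed, 5 were tested with a median of -0.01, and 1 rose: HERC4, by 0.33 (limma adjusted p = 0.0166). HERC1, HERC2 and HERC3 differed by -0.03, 0.05 and -0.09, and IFI27L2 by -0.01, none of them called. Among 16 tested genes for ubiquitin, other ubiquitin-like modifiers and their E1 and E2 enzymes, 1 rose and 2 fell, with a median of -0.08. The calls were NAE1, a subunit of the NEDD8 activating enzyme (0.27), URM1, a modifier that also acts in tRNA thiolation (-0.36), and SAE1, a subunit of the SUMO activating enzyme (-0.24).

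Upstream of the members in the interferon pathway, IRF9 mRNA fell and no receptor or kinase was called. Of 9 tested receptor and signalling genes, 1 fell and 0 rose, with a median of 0.17. The fall was that of IRF9, a DNA-binding transcription factor of interferon signalling, from 11.98 ± 0.13 to 10.5 ± 0.22 (-1.48 ± 0.11, SE; limma adjusted p = 4.46e-07). The part of the IRF9 fall in those of the members was not tested. The receptor chains IFNAR1 (0.37 ± 0.16) and IFNAR2 (0.28 ± 0.11) were not called, with limma adjusted p of 0.115 and 0.0693. The kinases TYK2 (0.08 ± 0.13) and JAK1 (0.17 ± 0.33) were not called either, and JAK2 was not tested. Of 21 interferon genes, IFNA8 alone had signal on enough arrays to be tested, and it differed by 0.22 (limma adjusted p = 0.0507).

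**Figure D4:**
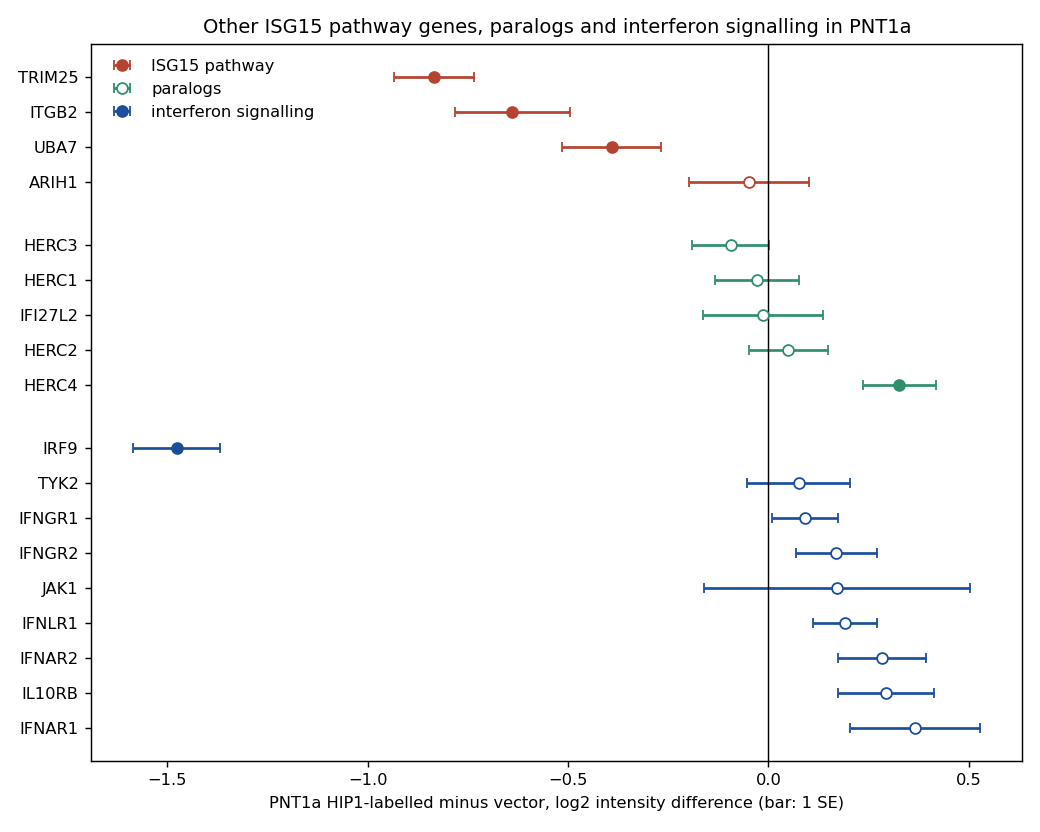
HIP1-labelled minus vector difference in PNT1a (x axis, log2 intensity, bar 1 SE) for tested ISG15 pathway genes, paralogs of the members and interferon receptor and signalling genes (y axis). Filled points are called at a limma adjusted p below 0.05; IRF9 lies at -1.48, TRIM25 at -0.83, and the paralog HERC4 at 0.33.

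A broader list of 42 other interferon-stimulated genes had 40 tested in PNT1a, of which 34 fell and 0 rose (median -1.28). Among all tested probes 13.4% were called lower. Of the 41 listed genes with a probe, 2 were above background on no HIP1-labelled array, so any of these that was tested could only fall. OAS2 fell most (-3.74), followed by IFIT1 (-3.42), the antiviral GTPase gene MX2 (-3.38) and IFIT3 (-3.25). PSMB8 (0.06) and PSMB9 (0.0003), subunits of the immunoproteasome, were among the 6 tested genes that were not called. Markers of the lines and of other cell types were read on the same arrays. Of 4 tested basal or mesenchymal markers, VIM (-0.83) and LGALS1 (-0.61) fell. The log2 of the summed intensities of the 6 measured ones ran from 14.83 to 15.07 with vector and from 14.43 to 14.60 with HIP1. The groups did not overlap, but such a sum is set mainly by the brightest genes. Of 6 measured luminal markers STEAP2 alone was tested, and it rose by 0.49 (limma adjusted p = 0.00290). Of 5 measured leukocyte markers, PTPRC, CD3E and LYZ were below background on all PNT1a arrays, CD68 fell by 0.72 (limma adjusted p = 0.0172) and CD14 was not called. The log2 of their summed intensities ran from 11.09 to 11.49 with vector and from 10.53 to 11.45 with HIP1. Of 6 fibroblast markers, DCN, LUM and COL1A2 were below background, and THY1 fell by 1.03 (limma adjusted p = 4.18e-05). The log2 of the summed intensities of the 6 ran from 10.82 to 11.05 with vector and from 10.06 to 10.47 with HIP1. All 3 endothelial markers were below background in PNT1a. The part of these markers in the members' falls was not tested.

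In LNCaP fewer members differed between HIP1-labelled and vector arrays. Of 9 probes tested, 3 fell and 0 rose, against 4.18% of all tested probes called lower and 3.14% called higher. The 3 calls were ISG15, IFI27 and 1 of the 2 IFI6 probes. The median difference of the 9 probes was -0.06, and that of all 12022 tested probes was 0.0053. All 6 HIP1-labelled arrays lay below all 6 vector arrays for 0 of the 9 probes and for 2.54% of all tested probes, a share at which 9 probes show nothing particular.

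ISG15 in LNCaP ran from 9.89 to 11.21 with vector (median 10.90) and from 9.21 to 10.40 with HIP1 (median 10.02). The ranges overlapped, with 1 vector array among the HIP1-labelled values at the low end. The fall was -0.85 ± 0.20 (limma adjusted p = 0.0136; exact permutation p = 0.0173). IFI27 ran from 7.19 to 8.21 with vector (median 7.68) and from 6.68 to 7.56 with HIP1 (median 7.01), where 3 of 6 arrays were above background. It fell by 0.54 (limma adjusted p = 0.0363; exact permutation p = 0.0303).

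The first IFI6 probe ran from 11.36 to 12.31 with vector (median 11.92) and from 11.07 to 11.77 with HIP1 (median 11.40), with overlap. It fell by 0.46 (limma adjusted p = 0.0468; exact permutation p = 0.0390). The second IFI6 probe ran from 8.44 to 9.37 with vector (median 9.20) and from 8.23 to 9.25 with HIP1 (median 8.38). It differed by a like amount, -0.47, and was not called (limma adjusted p = 0.0991; exact permutation p = 0.0823). All 3 LNCaP calls were lost with a variance trend and robust prior, with limma adjusted p from 0.0900 to 0.135. The IFI6 and IFI27 calls were each lost on leaving out any 1 of the same 8 arrays (vector 1, 2, 4 or 5, HIP1-labelled 1, 2, 3 or 6), with adjusted p from 0.0523 to 0.124.

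The remaining tested members did not differ detectably in LNCaP. UBE2L6 (ILMN_1769520) ran from 7.29 to 7.79 with vector and from 7.35 to 7.90 with HIP1, a difference of 0.07 (95% interval -0.12 to 0.27). HERC5 differed by -0.04 (interval -0.21 to 0.13) and HERC6 by 0.04 (interval -0.10 to 0.17). IFI35 differed by -0.05 (interval -0.23 to 0.13) and IFI44 by -0.06 (interval -0.20 to 0.09). These intervals leave out the PNT1a difference of each of the 5 genes. For UBE2L6, HERC6, IFI35 and IFI44 the LNCaP vector means (7.54, 7.79, 7.97 and 7.89) lay too close to the background level for a fall of the PNT1a size to show in full. A fall down to the background level could still have shown. Their LNCaP HIP1-labelled means were 7.61, 7.83, 7.93 and 7.83, and all 12 LNCaP arrays were above background for each. Their intervals, with lower ends of -0.12, -0.10, -0.23 and -0.20, also leave out a fall to the background level. Smaller falls within the intervals are not excluded. The LNCaP vector mean of HERC5 (8.30) left room for its PNT1a fall. Both IFI44L probes and the other 2 UBE2L6 probes were below background on all 12 LNCaP arrays and were not tested.

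Of the other ISG15 pathway genes, TRIM25 (-0.10) and ARIH1 (0.08) were tested and not called. IRF9 differed by -0.14 (limma adjusted p = 0.291), and the receptor chain IFNGR2 rose by 0.26 (limma adjusted p = 0.0323), the 1 call among 8 signalling genes. Beside a share of 4.18% of all tested probes called lower, 5 of 17 tested other interferon-stimulated genes fell and 0 rose, with a median of -0.13. They were IFIT1 (-0.67), IFITM1 (-0.58), OASL (-0.53), IFIT2 (-0.51) and OAS3 (-0.22). Line markers differed on the same arrays. Of 6 luminal markers, TMPRSS2 (0.56), KLK2 (0.45) and FOLH1 (0.44) rose. The log2 of the summed intensities of the 6 ran from 12.50 to 12.96 with vector and from 13.06 to 13.29 with HIP1, without overlap. VIM rose by 0.31 (limma adjusted p = 0.0357). The part of these markers in the members' differences was not tested.

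The size of the PNT1a and LNCaP differences was compared directly by the interaction of line and construct. For 11 of 12 probes the LNCaP difference was higher (less negative) than that of PNT1a, against 10.5% of all tested probes. The gap was 4.50 for IFI44L (ILMN_1723912), 3.59 and 1.85 for the IFI6 probes, 2.84 for HERC6 and 2.49 for IFI27. It was 1.69 for ISG15, 0.94 for HERC5 and 0.90 for UBE2L6, with limma adjusted p up to 0.000795 among the 11. The exception was the second UBE2L6 probe (0.45, limma adjusted p = 0.619). Without the 4 arrays numbered 6 its gap was 0.34 and was called (limma adjusted p = 0.00966), so that 12 of 12 probes were. For that probe and both IFI44L probes the LNCaP arrays lay below background. The LNCaP side of their gap is thus a difference between values below background. HERC6, the second IFI6 probe, IFI27 and IFI44 had too little LNCaP signal for a fall of the PNT1a size. Some gap was therefore fixed in advance for them if their PNT1a fall is taken as given. For the first UBE2L6 probe and IFI35 such a fall would end below the background level but above 6.48, the mode of all values. Their gap was thus not fixed, though the level after such a fall could not have been told from background.

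Between the lines, with vector, all 12 tested probes were lower in LNCaP than in PNT1a and none overlapped. Across all tested probes 36.5% were called lower and 27.5% had LNCaP vector arrays all below PNT1a vector arrays. IFI27 had the largest difference, at 7.63 ± 0.37 against 14.37 ± 0.37 (-6.74 ± 0.21, SE; limma adjusted p = 7.14e-20). UBE2L6 stood at 7.54 ± 0.19 against 12.96 ± 0.20, a 42.8-fold difference in signal (limma adjusted p = 1.17e-24). IFI44L was below background in LNCaP and at least 25.8-fold lower by its first probe. ISG15 (-2.16) and the first IFI6 probe (-2.08) differed less, with LNCaP vector means of 10.77 ± 0.47 and 11.88 ± 0.32. UBE2L6 probe ILMN_1703108 and both IFI44L probes entered this comparison through PNT1a alone. The lines also differ in stable against transient transfection and in G418, and these cannot be told apart from line.

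With HIP1, 8 of 12 probes were lower in LNCaP than in PNT1a, against 36.7% of all tested probes, and 7 did not overlap, against 27.2%. The 8 include UBE2L6 probe ILMN_1703108 (at least 4.51-fold) and the first IFI44L probe, which were below background on all 6 LNCaP arrays and passed the filter through PNT1a alone. UBE2L6 (-4.52), IFI27 (-4.25), IFI35 (-2.53), HERC5 (-2.48) and IFI44 (-1.76) did not overlap. HERC6 differed by -0.58 (limma adjusted p = 0.000631) with overlap. ISG15 differed by -0.47 and was not called (limma adjusted p = 0.0559), and the IFI6 probes differed by -0.22 and -0.14, not called either. Without the 4 arrays numbered 6 these 3 differences were -0.28, -0.09 and -0.22, still not called. The first IFI44L probe was called lower in LNCaP (limma adjusted p = 0.00112), by at least 1.03-fold only, with the PNT1a mean itself near background.

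Apart from IFI44L, which was near or below background in every group but PNT1a vector arrays, the order of the 4 groups took 2 forms. For ISG15 and both IFI6 probes, PNT1a vector arrays were highest, and PNT1a HIP1-labelled and LNCaP vector arrays overlapped each other below them. ISG15 averaged 12.93, then 10.77 in LNCaP vector, 10.39 in PNT1a HIP1-labelled and 9.92 in LNCaP HIP1-labelled arrays. For UBE2L6 (ILMN_1769520), HERC5, HERC6, IFI27, IFI35 and IFI44, both PNT1a groups averaged above both LNCaP groups. For HERC6 the PNT1a HIP1-labelled arrays (7.76 to 8.62) still overlapped the LNCaP vector arrays (7.65 to 7.89). HERC5, for example, averaged 11.71 and 10.74 in PNT1a and 8.30 and 8.26 in LNCaP, the last pair within their spread.

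Within groups, deviations from the group mean were compared between members by the brightest probe of each gene. Over 12 LNCaP arrays, 28 of 28 pairs of the 8 tested genes were positively correlated, with a median Pearson r of 0.45. The highest was 0.87, for IFI27 and IFI35. Over 12 PNT1a arrays, 17 of 36 pairs were positive, with a median of -0.03 and a range of -0.68 to 0.74. Without the arrays numbered 6, 25 of 28 LNCaP pairs (median 0.45) and 18 of 36 PNT1a pairs (median -0.03) were positive. These values are descriptions: all pairs share the same arrays, which also share the normalization and the clusters described above.

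**Figure D5:**
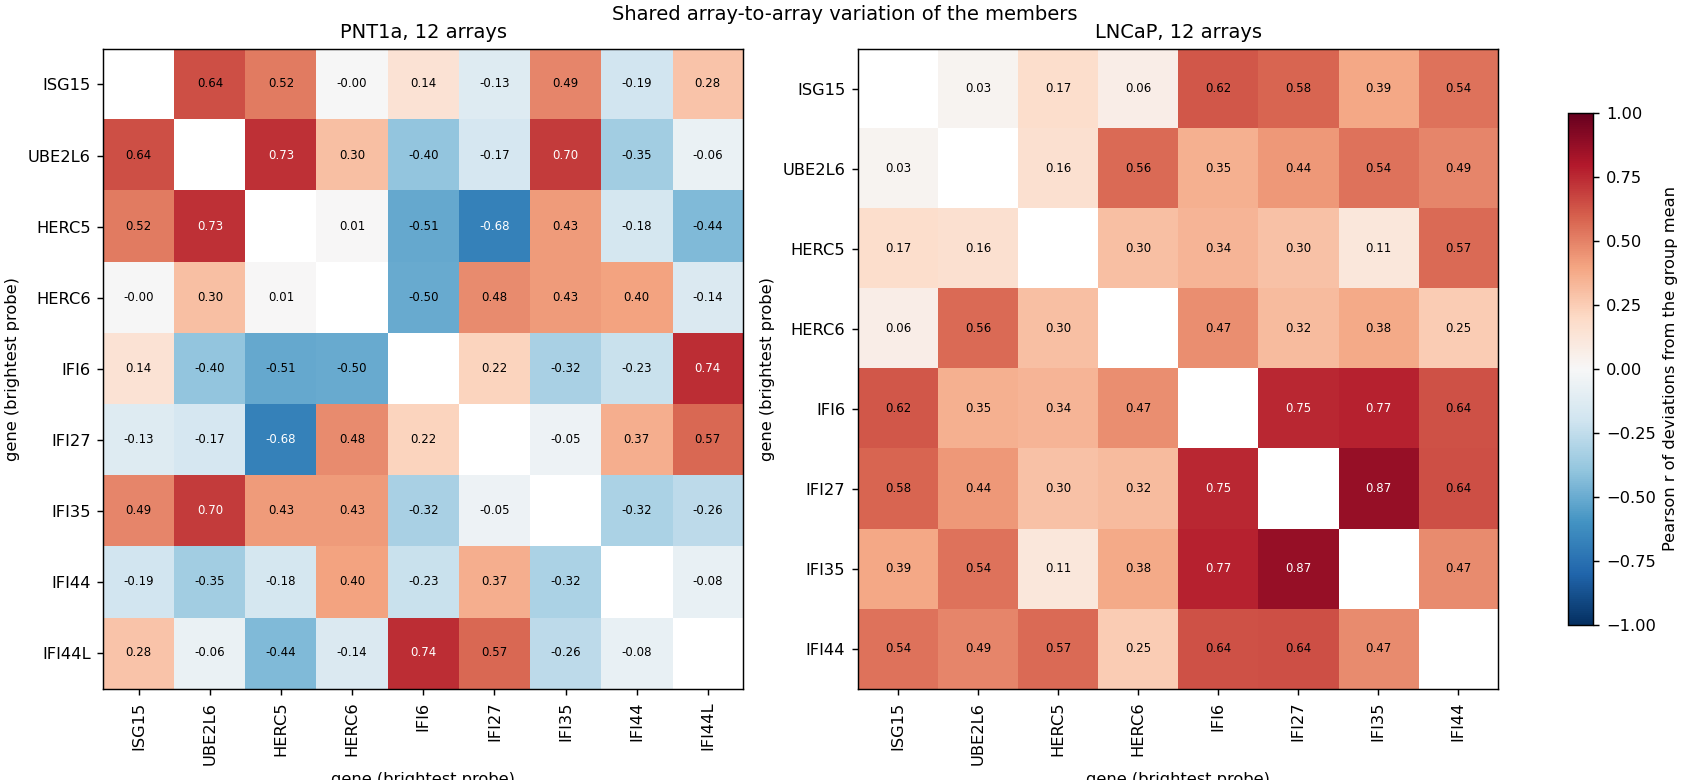
Pearson correlation between member genes (both axes, brightest probe of each) of their deviations from the group mean, over 12 arrays of PNT1a (left) and of LNCaP (right), coloured from -1 (blue) to 1 (red). All 28 LNCaP pairs are positive, up to 0.87, and PNT1a pairs run from -0.68 to 0.74.

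The genes whose levels followed the mean standardised level of the 9 members most closely over all 24 arrays were OAS2, OAS3, IFIT3, MX2, OAS1 and BEX1. Their Pearson r ran from 0.988 to 0.996, and it rests mainly on the difference between the lines and the PNT1a groups. OAS enzymes make the second messenger that activates RNase L, and IFIT3 and MX2 are antiviral effectors. BEX1, a brain-expressed X-linked gene, fell by 3.37 in PNT1a (limma adjusted p = 2.13e-08) and differed by -0.16 in LNCaP, uncalled. By deviations within groups, the closest genes in PNT1a were TPST1, CPZ, MAMDC2, MPZL2, PSG4 and COL5A2 (r from 0.903 to 0.948), none of them a listed interferon-stimulated gene. Unlike the members, TPST1 (1.30), CPZ (0.52), MAMDC2 (0.87), MPZL2 (0.67) and PSG4 (0.67) rose with HIP1 in PNT1a (limma adjusted p up to 0.0272). COL5A2 differed by 0.77, uncalled. In LNCaP the closest genes were ZDHHC5, NUDT16, IFITM1, RGS17, MAFA and FCGBP (r from 0.874 to 0.915), of which IFITM1 is interferon-stimulated. Each is over 12 arrays and is a description without a test.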

How the data were processed

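Total RNA from 24 samples was labelled with biotin and hybridised to Illumina arrays, per the labels' protocols. The values used are the log2 intensities deposited by the authors for 48803 probes. The 24 sorted columns differ by at most 0.0517, so they share 1 distribution. The sources used here name neither the software nor the normalization. A deposited table of raw intensity per bead type, per the file headers, served only to learn the scale, through its 6 columns that match the labels (LNCaP with HIP1). Its 18 other columns were not used. Precision is limited by the 6 arrays per group.

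Symbols came from the platform annotation: 28098 probes had 1 symbol, 13 had several and 20692 had none. Gene IDs of 28059 probes matched RefSeq, which changed 0 symbols. The background level of 6.97 is the mode of all values (6.48) plus 3 SDs of the values below the mode. Probes above it on at least 6 of 12 arrays of a line were tested: 12238 in PNT1a, 12022 in LNCaP and 13946 in either.

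Group means were fitted with limma 3.58.1 in R 4.3.3, on the 12 arrays of a line for contrasts within it, because the spread is wider in PNT1a (median SD 0.185 and 0.207) than in LNCaP (0.126 and 0.120). All 24 arrays were used between lines and for the interaction. P-values were adjusted by Benjamini-Hochberg over all tested probes and called at 0.05. Every adjusted p comes from limma and is two-sided. Single probes were also tested by two-sided exact permutation of the 12 arrays. The labels name biological replicates without saying how cultures were separated, so p-values measure the spread between these samples. Where no array of 1 of the compared groups exceeded the background level, that group was set to that level and the fold is given as "at least". The fits were tested on simulated data. Both direct comparisons between lines made a larger share of false calls there than the 0.05 used for calling, and the interaction missed many small changes. The PNT1a comparison recovered 67.2% of simulated log2 changes of 0.5 and 82.4% of changes of 1. An uncalled PNT1a gene may therefore have changed by such an amount. Weighting by the variance of each line left the member calls at 12 between vector groups, 8 between HIP1-labelled groups and 11 for the interaction.

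Every member probe is named. Other genes are named from lists: up to 4 called genes of the largest change and up to 2 uncalled ones, with the ISG15 pathway, paralogs and interferon signalling genes allowed in full, and the 6 genes most like the members by Pearson correlation. Each list gene entered by its brightest probe. The members and lists were chosen with earlier results of these data known. Alternatives covered the spread, the filter, the arrays, the replicate block and the centring. Comparison of protein sequences was not run.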

Additional observations from a re-analysis of the deposited data

Results flagged for a closer look

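Of 52 sets of 6 values (13 probes in 4 groups), 8 held an array far from the rest by Dixon's criterion, where chance gives about 1 in 20. In PNT1a, 5 of them were arrays numbered 6. UBE2L6 probe ILMN_1703108 read 7.92 on vector array 6, against 9.92 to 10.23 on the other vector arrays, and 6.80 on HIP1-labelled array 6, against 9.56 to 9.72. HERC6 read 10.46 on vector array 6, against 11.22 to 11.48, and 7.76 on HIP1-labelled array 6, against 8.49 to 8.62. The second IFI6 probe read 12.07 on vector array 6, against 12.68 to 13.03. In LNCaP HIP1-labelled arrays, HERC5 read 8.01 on array 5, against 8.25 to 8.37, and IFI44 read 8.06 on array 4, against 7.76 to 7.81. UBE2L6 probe ILMN_2252495, which is below background, read 6.85 on array 2, against 6.46 to 6.59.

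The difference between HIP1-labelled and vector arrays itself differed between the lines for 11 probes, tested as an interaction. LNCaP minus PNT1a, it was 1.69 for ISG15, 0.90 for UBE2L6 (ILMN_1769520), 0.94 for HERC5 and 2.84 for HERC6. It was 1.85 and 3.59 for the IFI6 probes, 2.49 for IFI27, 1.27 for IFI35 and 2.08 for IFI44. For the IFI44L probes it was 4.50 and 1.53, with LNCaP below background. For UBE2L6 (ILMN_1769520), HERC6, the second IFI6 probe, IFI27, IFI35 and IFI44 a fall of the PNT1a size would have ended below the background level in LNCaP.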

How the results depend on the processing

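The 11 PNT1a calls among member probes held in every alternative that tested them, over 21 settings each (20 for the second IFI44L probe, not tested at the stricter background level), and no member value changed direction while called. In PNT1a, 3370 probes were called in all, against 5522 without both arrays numbered 6, 6057 with array weights and 5822 with the residual cluster as a block, and 2829 to 4687 on leaving out 1 array, where the members stayed at 11. In LNCaP, 880 probes were called, against 235 with a spread shared over 24 arrays and 549 with no filter, and 519 to 1193 on leaving out 1 array. LNCaP member calls went from 3 to 1 with the shared spread (ISG15 alone) and 0 with the variance trend and robust prior, and 1 to 4 on leaving out 1 array. The lower count of other interferon-stimulated genes in LNCaP went from 5 to 3 with the shared spread. The cause of these shifts was not tested, except that fewer arrays or more probes enter where the setting says so. Leaving out 1 array gave 10321 to 11011 calls between vector groups (12 members), 10404 to 10871 between HIP1-labelled groups (8 to 9 members, ISG15 being gained without any 1 of 6 arrays, adjusted p from 0.0282 to 0.0460), and 2781 to 4157 for the interaction (11 members). Correlations of deviations between same-numbered arrays ran from -0.04 to 0.70 in PNT1a and from -0.24 to 0.32 in LNCaP. The PNT1a pair numbered 6 (0.70) and 5 (0.33) deviated together, but only 2 of 6 pairs in each line passed 0.1, so the numbers were not taken to pair the samples. Of 12 arrays, 2 in PNT1a and 3 in LNCaP correlated best with their own number. With the replicate block, calls were 4449 in PNT1a (12 members) and 868 in LNCaP (4 members), gaining the second UBE2L6 probe (adjusted p = 0.00552) and the second IFI6 probe (adjusted p = 0.0236). With the residual cluster as a block those probes were gained too (adjusted p = 0.000386 and 0.0427), as was the second IFI6 probe without LNCaP vector 3 or HIP1-labelled 5 (0.0212 to 0.0281). The IFI6 call in LNCaP also ended with no filter (adjusted p = 0.0503). With exact permutation, 11 of 13 probes in PNT1a and 3 of 13 in LNCaP had p below 0.05. Signal over background limits IFI44L and the second UBE2L6 probe in LNCaP. It also bounds how far UBE2L6 (ILMN_1769520), HERC6, the second IFI6 probe, IFI27, IFI35 and IFI44 could fall there.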
